A study of Mus musculus with 8 samples.

Results

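Expression of 10 genes of the oxidative stress and NRF2 response was compared between the livers of *Agpat3* wild-type (WT) and *Agpat3* knockout (KO) mice. The genes were *Nqo1*, *Hmox1*, *Gclc*, *Gclm*, *Txnrd1*, *Srxn1*, *Gpx4*, *Mt1*, *Mt2* and *Sod2*, chosen by name as a pathway set. Their probes were found through the transcript accession of each probe, which gave 12 of the 56605 probes on the array and 10 of its 22911 named genes. *Mt1* and *Txnrd1* had 2 probes each, and the other genes had 1. Total RNA of frozen liver from male C57BL/6 mice aged 10 weeks, of which 4 were WT and 4 KO, was labeled with Cy3 and put on Agilent arrays, each liver on its own array. The KO mice lack *Agpat3*, which encodes an acyltransferase that places docosahexaenoic acid in membrane phospholipids, in all tissues, and no other treatment was given in the labels. In KO liver the study reported less docosahexaenoic acid in phospholipids but more of other polyunsaturated fatty acids, above all arachidonic acid. Polyunsaturated chains in membranes are prone to peroxidation, and the comparison asks whether the genes that answer oxidants differed in livers without AGPAT3.

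NRF2, encoded by *Nfe2l2*, is a transcription factor that KEAP1 holds at a low level until oxidants or electrophiles modify KEAP1. NRF2 then pairs with small MAF proteins at antioxidant response elements and raises genes for quinone reduction, glutathione synthesis and the thioredoxin system, while BACH1 represses some of the same sites, that of *Hmox1* above all. The metallothioneins MT1 and MT2 bind zinc and copper, scavenge oxidants, and are induced in liver by zinc through MTF1 at metal response elements and by glucocorticoids and inflammation. GPX4 reduces phospholipid hydroperoxides in membranes, and SOD2 removes superoxide in mitochondria.

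Promoter sequences of the members are shown for the pair of genes that were called different and for 2 members with an antioxidant core that were not. RefSeq (GRCm38.p6) gave windows of 250 bases before to 50 bases after a transcription start for 8 of the 10 members, 13 windows in all, and none was used for *Hmox1* and *Gclc*. In the windows of *Mt1* (chr8:94178839-94179138, plus strand) and *Mt2* (chr8:94172368-94172667, plus strand), capitals mark the metal response core, searched on both strands as TGCACNC or TGCGCNC. In those of *Srxn1* (chr2:152105274-152105573, plus strand) and *Gclm* (chr3:122245307-122245606, plus strand), capitals mark the antioxidant core TGACNNNGC, which reads on the other strand in both.
Mt1: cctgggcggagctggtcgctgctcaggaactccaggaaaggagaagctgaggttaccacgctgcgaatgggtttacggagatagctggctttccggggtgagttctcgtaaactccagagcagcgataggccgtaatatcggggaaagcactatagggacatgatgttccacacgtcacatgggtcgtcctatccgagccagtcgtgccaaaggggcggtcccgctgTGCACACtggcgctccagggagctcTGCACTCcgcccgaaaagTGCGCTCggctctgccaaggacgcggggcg
Mt2: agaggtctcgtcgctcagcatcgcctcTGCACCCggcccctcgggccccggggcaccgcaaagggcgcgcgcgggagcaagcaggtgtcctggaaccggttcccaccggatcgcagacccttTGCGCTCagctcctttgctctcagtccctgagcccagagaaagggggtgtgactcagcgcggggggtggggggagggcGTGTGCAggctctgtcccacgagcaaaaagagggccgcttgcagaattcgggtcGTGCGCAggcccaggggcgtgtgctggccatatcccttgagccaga
Srxn1: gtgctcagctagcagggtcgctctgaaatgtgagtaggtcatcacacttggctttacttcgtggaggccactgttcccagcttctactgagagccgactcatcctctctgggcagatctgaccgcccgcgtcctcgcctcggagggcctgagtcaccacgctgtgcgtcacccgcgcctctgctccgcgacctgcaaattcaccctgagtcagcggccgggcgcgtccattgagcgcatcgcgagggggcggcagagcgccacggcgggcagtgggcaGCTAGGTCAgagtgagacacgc
Gclm: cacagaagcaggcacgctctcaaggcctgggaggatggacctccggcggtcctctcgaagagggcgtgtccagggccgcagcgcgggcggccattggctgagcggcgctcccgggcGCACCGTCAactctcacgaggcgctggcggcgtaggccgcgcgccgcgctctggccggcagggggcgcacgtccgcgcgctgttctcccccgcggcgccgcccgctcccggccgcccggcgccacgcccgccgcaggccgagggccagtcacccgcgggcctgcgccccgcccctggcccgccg

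The *Mt1* window held 3 metal response cores, of which the first base lay 23 bases before and 2 and 20 bases after the start. The *Mt2* window held 4, at 223, 128 and 50 bases before and 4 bases after the start, and an antioxidant core, tgactcagc, at 79 bases before it. Of 32851 mouse promoter windows of the same length, 25.7% held a metal response core in either form, 1.97% held at least 3 and 0.517% held at least 4. The *Gclm* window also held 3 metal response cores, 1 of which overlapped its antioxidant core at 134 bases before the start. An antioxidant core was found in 12.4% of all windows and in 4 of the 13 member windows, those of *Gclm*, *Mt2*, *Srxn1* and 1 of the 3 windows of *Txnrd1*. Positions refer to the annotated start of each window, which was not checked against the start used in liver. Cores beyond the window were not counted, and forms of the cores other than those given were not searched. A match describes the letters and not a bound site.

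Levels are log2 processed signals relative to the 75th percentile of that array, so that 0 is the level of that percentile, and a difference of 1 is a 2-fold change. A level belongs to its probe and cannot be set against that of another probe. All 12 member probes were well above background on all 8 arrays, so the filter on dim probes removed no member. Calls required a fold change over 1.5 and a Benjamini-Hochberg adjusted p under 0.2 from limma, thresholds taken from the study's volcano plot, and each gene was read from its brightest probe. Of 14066 named genes tested, 142 were called higher in KO liver (1.01%) and 106 lower (0.754%). Both probes of *Agpat3* fell in every KO mouse, with log2 fold changes of -6.12 and -5.69. The 5 hepatocyte markers were measured on all arrays and none was called, and the median change of all genes tested was -0.03. All arrays shared 1 slide, WT in its row 1 and KO in row 2, so row and genotype cannot be told apart. Nothing in the labels says whether the mice were littermates, and the p-values measure the spread between these samples.

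None of the 10 members was called higher (0 of 10, beside 1.01% of all genes), and 2 of 10, *Mt1* and *Mt2*, were called lower (beside 0.754% of all genes). The other 8 members had log2 fold changes between -0.28 and 0.26. Of all members 5 had a positive and 5 a negative change, with a median of -0.03, that of all genes tested to the second decimal. At an unadjusted p under 0.05 from limma there were 3 members, *Mt1*, *Mt2* and *Srxn1*. The share of all genes under that unadjusted p was not counted. In no member did all 4 KO values lie above, or all 4 below, every WT value, which was the case for 9.71% of all genes.

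**Figure D1:**
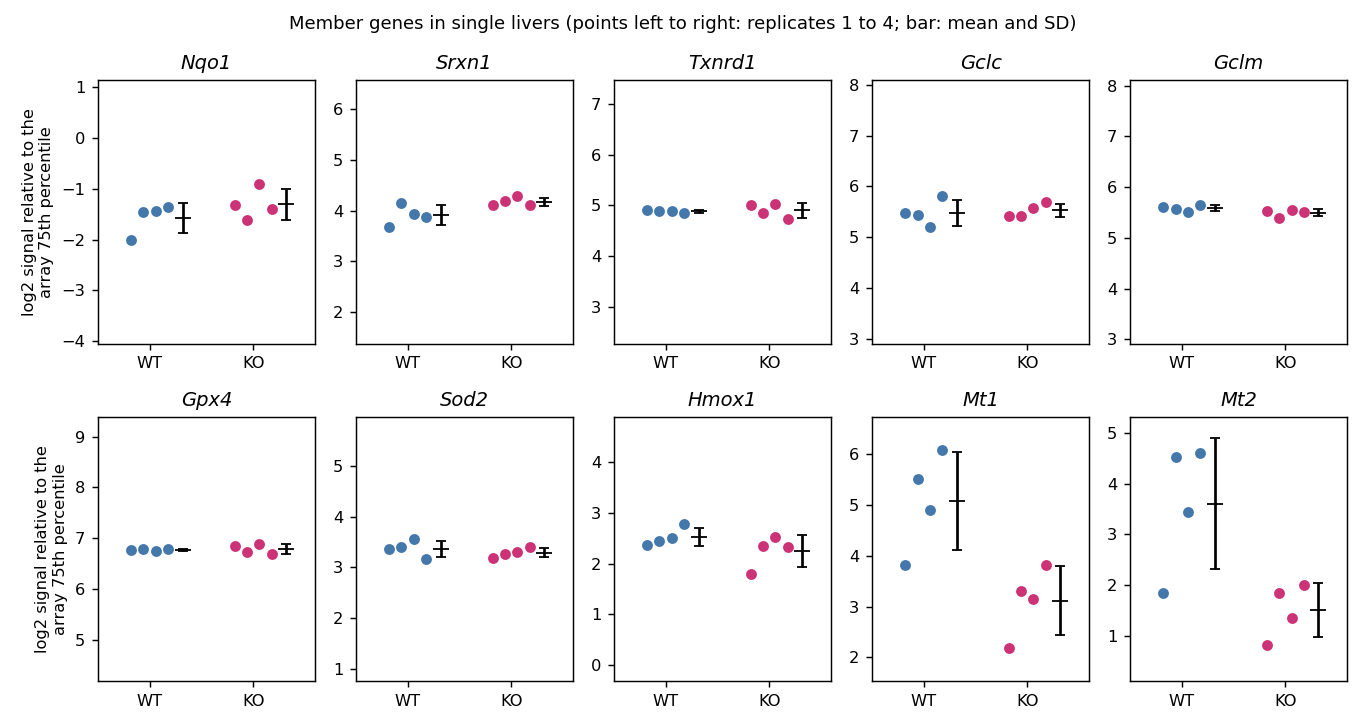
Log2 signal of the 10 member genes in single livers, with the array's 75th percentile as 0 (brightest probe of each gene). Points are mice, with replicates 1 to 4 from left to right, and the bar beside each group is the mean with its SD (n = 4). All panels span the same range of log2 units, and only *Mt1* and *Mt2* spread over more than 3 of them.

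The metallothionein genes were the members that differed. *Mt1* had log2 levels of 3.83, 5.52, 4.90 and 6.09 in WT mice 1 to 4 and of 2.18, 3.31, 3.15 and 3.83 in KO mice 1 to 4. The groups met at 1 point, since WT mouse 1 and KO mouse 4 had the same level to the second decimal, while the other 3 KO mice lay below every WT mouse. The mean was 5.09 ± 0.97 in WT and 3.12 ± 0.69 in KO (SD, n = 4 each). The difference was -1.97 on the log2 scale, with a standard error of 0.51 and a 95% confidence interval of -3.13 to -0.80, or a 3.91-fold lower mean in KO. The limma adjusted p was 0.158, and the exact permutation test over all 70 assignments of the mice gave a two-sided p of 0.0571.

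*Mt2* lies next to *Mt1* on chromosome 8, with *Mt3* on its other side beyond a noncoding gene. Its log2 levels were 1.84, 4.52, 3.44 and 4.61 in WT mice 1 to 4 and 0.82, 1.85, 1.35 and 2.01 in KO mice 1 to 4. Again WT mouse 1 was the low one of its group, and 2 KO mice lay just above it, while the other 3 WT mice were above all KO mice. The mean was 3.60 ± 1.29 in WT and 1.51 ± 0.54 in KO (SD, n = 4 each). The difference was -2.09 on the log2 scale, with a standard error of 0.60 and a 95% confidence interval of -3.46 to -0.73, or a 4.27-fold lower mean in KO. The limma adjusted p was 0.193, close to the threshold of 0.2, and the exact permutation p was 0.0857 (two-sided, smallest possible 0.0286).

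The second probe of *Mt1*, which carries the accession of a predicted transcript, was dimmer and did not separate the genotypes. It gave -3.63, -0.97, -1.51 and 0.33 in WT mice and -3.07, -2.10, -3.20 and -0.61 in KO mice, and all KO values lay inside the WT range. The log2 fold change of this probe was -0.80 with a standard error of 0.87 (limma adjusted p = 0.749, exact permutation p = 0.457). With *Mt1* read as the mean of both probes, its change was -1.38 and was not called (limma adjusted p = 0.399).

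Both metallothionein calls also turned on single mice. With WT mouse 1 left out, the change of *Mt1* was -2.39 (limma adjusted p = 0.104) and that of *Mt2* was -2.68 (0.0606). Without WT mouse 2, 3 or 4, or KO mouse 1, 2 or 3, neither gene was called, with adjusted p between 0.207 and 0.311 for *Mt1* and between 0.255 and 0.357 for *Mt2*. Without KO mouse 4, *Mt1* was called (0.178) and *Mt2* was not (0.25). The log2 fold change stayed negative each time, between -2.39 and -1.63 for *Mt1* and between -2.68 and -1.76 for *Mt2*.

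**Figure D2:**
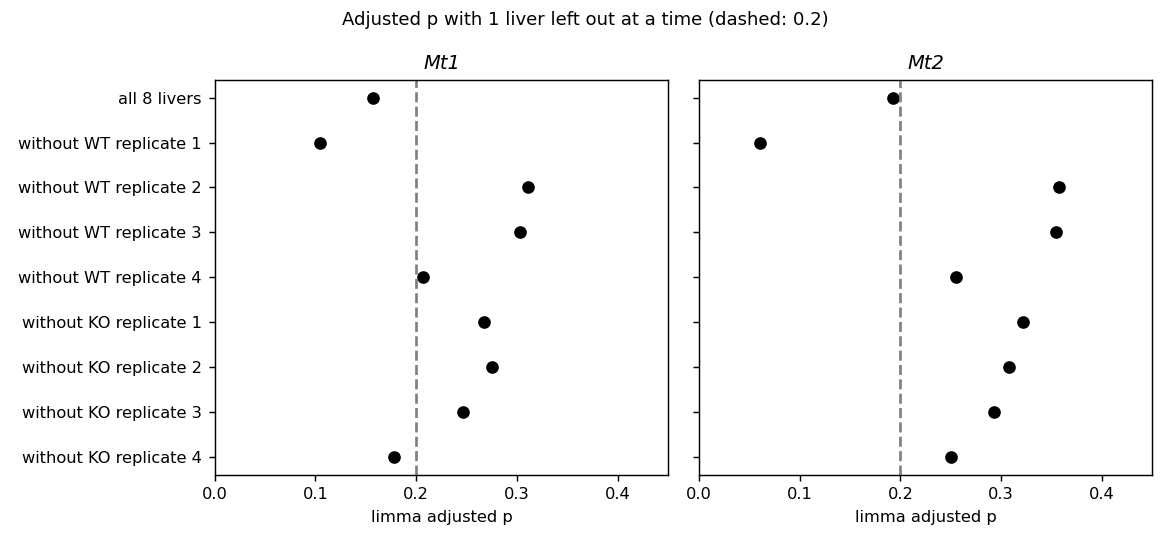
Limma adjusted p of *Mt1* and *Mt2* with all 8 livers and with 1 liver left out at a time. The dashed line is the threshold of 0.2, which *Mt1* met in 2 and *Mt2* in 1 of the 8 sets of 7 livers.

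The spread of these genes among mice of the same genotype was also wide. *Mt1* had a within-genotype SD of 0.84 log2 units and *Mt2* of 0.99, at percentiles 99.1 and 99.4 of all genes tested, for which the median SD was 0.16. Between the lowest and the highest WT mouse *Mt1* differed 4.80-fold and *Mt2* 6.81-fold, and over all 8 mice 15.0-fold and 13.8-fold. The mice kept nearly the same order in both genes. Within each genotype, *Mt1* (brighter probe) and *Mt2* were lowest in mouse 1, followed by mice 3, 2 and 4. The mouse number is also the column of the slide, so mouse and column cannot be told apart in this order. The correlation of *Mt1* with *Mt2* over the 8 mice was r = 0.979 (exact permutation p = 7.44e-05, adjusted p = 0.00335 over 45 pairs of members) and rho = 0.976 (exact permutation p = 0.000397, adjusted 0.0179). Without WT mice 2 and 4, which lay farthest from the median of *Mt1*, r was 0.960. Within genotypes, with the group means removed, r was 0.948, and its exact permutation p of 0.00174, the smallest that shuffling within genotypes allows, was 0.0781 after adjustment. The probes of these related genes may take up RNA of each other, which was not tested.

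**Figure D3:**
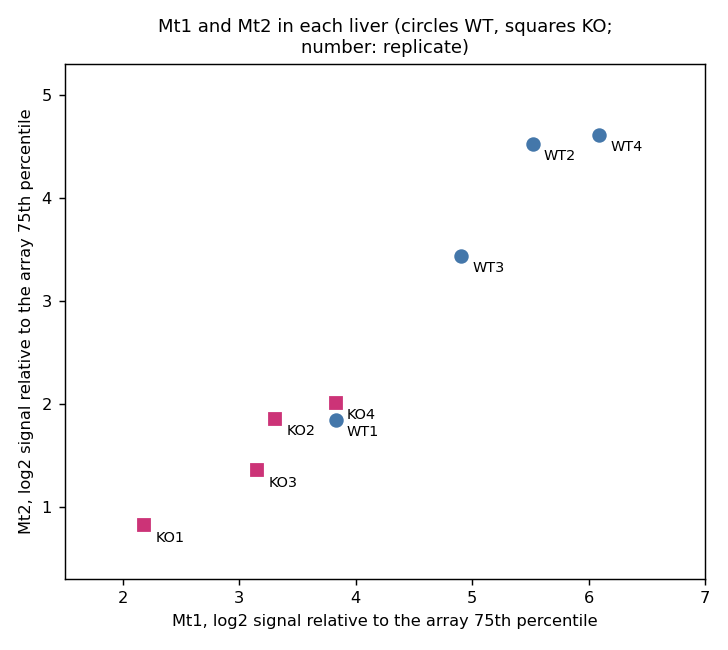
Log2 signal of *Mt2* against that of *Mt1* in each of the 8 livers, with the array's 75th percentile as 0. Circles are WT and squares KO mice, and WT mouse 1 lies among the KO mice, beside KO mouse 4.

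Besides each other, the named genes most like *Mt1* over the 8 mice were *Tmem211* (r = 0.98, rho = 0.93) and *1700028I16Rik* (r = 0.97, rho = 0.95), and those most like *Mt2* were *Tmem211* (r = 0.96, rho = 0.90) and *Maf1* (r = 0.95, rho = 1.00). *Maf1*, a repressor of RNA polymerase III, thus ranked the mice exactly as *Mt2* did. These were picked as the highest of all genes and are a description. Their own log2 fold changes were smaller than those of *Mt1* and *Mt2*, -0.25 for *Tmem211*, -0.26 for *1700028I16Rik* and -0.35 for *Maf1*. Of all genes tested, 80.6% had a change under 0.25 in either direction.

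The wider metallothionein and zinc list did not fall with *Mt1* and *Mt2*. Of its 7 genes tested, 0 were called lower and 1, *Slc39a10*, was called higher. *Slc39a10*, a zinc importer, had log2 levels of -2.36, -2.49, -2.34 and -3.29 in WT mice and -1.92, -1.76, -1.82 and -2.01 in KO mice. All KO mice were above all WT mice, by 0.74 log2 units on average (limma adjusted p = 0.182, standard error 0.20). The call was lost with any 1 of the 8 mice left out, and the difference was 0.52, under 1.5-fold, without WT mouse 4. *Mtf1*, the zinc-sensing activator of the metallothioneins, had the lowest value of the list, -0.26 (adjusted p = 0.316). The brain-type *Mt3* gave 0.06 (adjusted p = 0.733), and *Mt4* was above background on none of the arrays.

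Signals that bear on other inducers and on other cells were read beside the metallothioneins. Of 12 acute-phase genes 0 were called and 0 had an unadjusted p under 0.05 from limma. Of these genes 11 had a negative change, with a median of -0.25, beside -0.03 for all genes tested. They ranged from -0.98 for *Socs3*, a cytokine feedback inhibitor, to 0.14 for *Apcs*. The share of all genes with a negative change was not counted. The summed level of the acute-phase list was 11.14 to 11.71 in WT and 11.00 to 11.28 in KO mice on the log2 scale. Of 13 glucocorticoid- and fasting-responsive genes 0 were called, with a median of 0.21, from -1.0 for *Zbtb16* (adjusted p = 0.380) to 0.76 for *Igfbp1* (adjusted p = 0.643). Of 8 Kupffer cell markers 1 was called lower, the scavenger receptor *Marco* (-1.22, limma adjusted p = 0.0983, every KO mouse below every WT mouse). The summed level of the Kupffer list was 6.53 to 7.24 in WT and 6.29 to 7.02 in KO mice. No gene was called on the other marker lists, though several of their members had lower values in KO. The 4 erythroid markers had changes of -0.40 to -0.16, with a summed level of 7.76 to 8.06 in WT and 7.25 to 8.01 in KO mice. Of these, *Slc4a1* (-0.35, limma adjusted p = 0.159) had every KO mouse below every WT mouse but stayed under a 1.5-fold change. The 7 other leukocyte markers tested ranged from -0.89 for *S100a9* to 0.35 for *Ly6c2*, with *S100a8* at -0.74, and summed to 4.36 to 4.73 in WT and 4.52 to 4.66 in KO mice. The 6 stellate cell markers ranged from -0.95 for *Col1a1* to 0.50 for *Lrat*, and summed to 6.50 to 6.83 in WT and 6.48 to 6.59 in KO mice. The 3 cholangiocyte markers tested ranged from -0.64 for *Sox9* to 0.17 for *Krt19*, and the 5 endothelial markers from -0.52 for *Lyve1* to 0.13 for *Cdh5*. Of 5 pancreatic acinar markers, *Cpa1*, *Pnlip* and *Prss2* were above background nowhere, *Ctrb1* gave -0.15, and *Cela1* gave -0.54 with every KO mouse below every WT mouse (adjusted p = 0.292). Of 4 adipocyte markers, *Adipoq* and *Plin1* were above background nowhere, while *Fabp4* and *Lep* were above it on all arrays. *Fabp4* gave -0.004 and *Lep* -0.10. A summed level mostly follows the brightest probe of its list, such as *Dcn* for stellate and *Hba-a1* for erythroid cells. It does not measure the amount of a cell type. In whole tissue, fewer cells of a type and less RNA per cell cannot be told apart. The part of these signals in the metallothionein values was not tested.

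NQO1, the reductase that detoxifies quinones, is often taken as the readout of NRF2 activity. *Nqo1* had log2 levels of -2.00, -1.46, -1.44 and -1.35 in WT mice and -1.32, -1.61, -0.89 and -1.40 in KO mice. WT mouse 1 was the lowest and KO mouse 3 the highest, and the genotypes overlapped. The log2 fold change was 0.26 (95% confidence interval -0.17 to 0.69, standard error 0.19, limma adjusted p = 0.613). The interval reaches past a 1.5-fold increase, so a rise of that size was not excluded.

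SRXN1 restores peroxiredoxins that have been inactivated by peroxide. *Srxn1* had log2 levels of 3.67, 4.16, 3.94 and 3.88 in WT mice and 4.11, 4.19, 4.29 and 4.12 in KO mice. All 4 KO mice lay above the WT mean, but WT mouse 2 lay within the KO group. The log2 fold change was 0.26 (standard error 0.11, 95% confidence interval 0.02 to 0.51), with an unadjusted p of 0.0384 from limma that became 0.344 after adjustment. The exact permutation p was 0.0857.

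TXNRD1 is the cytosolic enzyme that reduces thioredoxin at the expense of NADPH. The brighter probe of *Txnrd1* gave 4.91, 4.89, 4.88 and 4.84 in WT mice and 5.01, 4.85, 5.03 and 4.72 in KO mice, with KO mice on both sides of the narrow WT group. Its log2 fold change was 0.02 (95% confidence interval -0.16 to 0.21, limma adjusted p = 0.928), and that of the dimmer probe was 0.11 (-0.23 to 0.45, limma adjusted p = 0.805).

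GCLC and GCLM are the catalytic and the modifier subunit of glutamate-cysteine ligase, the rate-limiting enzyme of glutathione synthesis. *Gclc* had log2 levels of 5.47, 5.44, 5.19 and 5.82 in WT mice and 5.41, 5.42, 5.58 and 5.69 in KO mice. All KO values lay inside the WT range, with a log2 fold change of 0.05 (95% confidence interval -0.26 to 0.36, limma adjusted p = 0.910). *Gclm* had log2 levels of 5.62, 5.58, 5.52 and 5.64 in WT mice and 5.53, 5.39, 5.56 and 5.52 in KO mice. Its values were tight, and no KO mouse was above the WT mean, but the groups overlapped. The log2 fold change was -0.09 (95% confidence interval -0.24 to 0.06, limma adjusted p = 0.623, exact permutation p = 0.0857).

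*Gpx4*, whose enzyme acts on the peroxidized polyunsaturated phospholipids of membranes, had log2 levels of 6.77, 6.79, 6.74 and 6.79 in WT mice and 6.85, 6.72, 6.89 and 6.68 in KO mice. Of the KO mice 2 lay above and 2 below all WT mice, and the log2 fold change was 0.01 (95% confidence interval -0.14 to 0.17, limma adjusted p = 0.955). *Sod2* had log2 levels of 3.36, 3.40, 3.55 and 3.17 in WT mice and 3.19, 3.27, 3.30 and 3.40 in KO mice. All KO values lay inside the WT range, and the log2 fold change was -0.08 (95% confidence interval -0.30 to 0.13, limma adjusted p = 0.765).

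HMOX1 breaks heme down to biliverdin, iron and carbon monoxide. *Hmox1* had log2 levels of 2.37, 2.45, 2.50 and 2.78 in WT mice and 1.80, 2.36, 2.52 and 2.32 in KO mice. KO mouse 1 stood lowest, 3 KO mice lay below all WT mice, and KO mouse 3 lay among the WT mice. The log2 fold change was -0.28 (standard error 0.16, 95% confidence interval -0.65 to 0.10, limma adjusted p = 0.523, exact permutation p = 0.20).

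For 6 members, *Srxn1*, *Txnrd1*, *Gclc*, *Gclm*, *Gpx4* and *Sod2*, the 95% confidence interval of the brightest probe lay within a 1.5-fold change in either direction. For *Nqo1* and *Hmox1* it reached past that size on 1 side. The within-genotype SD was 0.07 log2 units for *Gclm* and *Gpx4*, 0.10 for *Txnrd1*, 0.13 for *Sod2*, 0.15 for *Srxn1*, 0.21 for *Gclc*, 0.26 for *Hmox1* and 0.30 for *Nqo1*. *Gclm*, at percentile 8.02 of all genes, and *Gpx4*, at 10.1, were thus among the steadier genes of these livers.

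**Figure D4:**
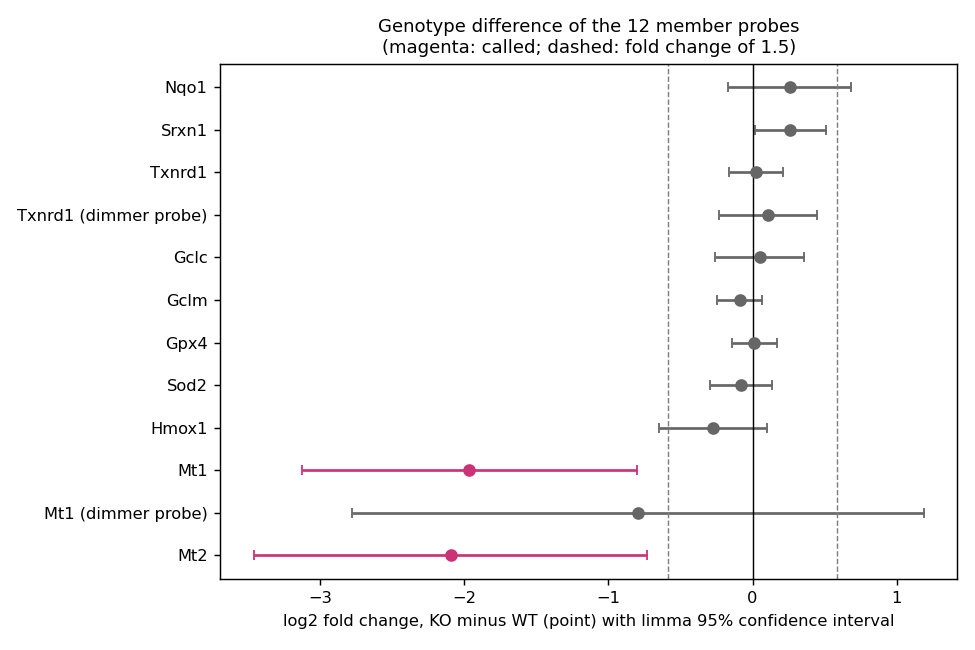
Log2 fold change, KO minus WT, of the 12 member probes with the 95% confidence interval from limma. Magenta marks called probes and dashed lines a fold change of 1.5. Only *Mt1* (brighter probe) and *Mt2* have intervals that lie wholly past that line.

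Among the 45 pairs of members, *Mt1* with *Mt2* was the pair with an adjusted p under 0.05, and 25 pairs had a positive r. At an unadjusted p under 0.05 (exact permutation) there were 5 pairs. Besides the metallothioneins they were *Txnrd1* with *Gpx4* (r = 0.911, p = 0.00332, adjusted 0.0748, and rho = 0.738, p = 0.0458), *Hmox1* with *Mt1* (r = 0.791, p = 0.0117, adjusted 0.175, and rho = 0.548, p = 0.171), *Hmox1* with *Mt2* (r = 0.698, p = 0.0302, adjusted 0.340, and rho = 0.524, p = 0.197) and *Nqo1* with *Srxn1* (r = 0.722, p = 0.0451, adjusted 0.406, and rho = 0.286, p = 0.501). Each of these 4 rho had an adjusted p of 0.794. Without the 2 mice farthest from the median of the first gene, r was 0.741, 0.273, 0.293 and -0.49. Leaving out the farthest mice also narrows the range of the first gene, so this does not show what the relations rest on. With genotype means removed, r was 0.910, 0.724, 0.537 and 0.643 in the same order. The adjusted p of these values was 0.586 to 0.625 (exact permutation within genotypes). *Nqo1*, the other member that spanned more than 1 log2 unit, was most like *Cetn2* (r = 0.97, rho = 0.74), *9130401M01Rik* (r = 0.96, rho = 0.95) and *Tmem159* (r = 0.96, rho = 0.74).

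The rest of the pathway was read from 9 lists of 91 genes without the members, of which 90 were on the array and 85 were tested. In KO liver 4 were called higher (beside 1.01% of all genes) and 0 lower (beside 0.754%), with a median log2 fold change of -0.04, and 19 had an unadjusted p under 0.05 from limma. The share of all genes under that unadjusted p was not counted, so the 19 cannot be read as an excess. The 4 called higher were *G6pdx*, *Pgd*, *Me1* and *Slc39a10*. The first 3 make cytosolic NADPH, a reductant that glutathione reductase and thioredoxin reductase use, among other enzymes. Whether the change of these 3 genes belongs to an oxidant response was not tested.

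*G6pdx*, the entry enzyme of the pentose phosphate pathway, had log2 levels of 0.36, 0.53, 0.60 and 0.84 in WT mice and 1.41, 1.48, 2.36 and 1.32 in KO mice. It was higher in KO by 1.06 log2 units (limma adjusted p = 0.108, standard error 0.23). *Me1*, cytosolic malic enzyme, had 5.14, 4.59, 4.21 and 4.43 in WT mice and 5.55, 5.26, 5.81 and 5.16 in KO mice, a difference of 0.85 (limma adjusted p = 0.155, standard error 0.22). *Pgd*, the next dehydrogenase of the pentose phosphate pathway, had 2.05, 2.40, 2.22 and 2.42 in WT mice and 2.91, 2.71, 3.19 and 2.74 in KO mice, a difference of 0.62 (limma adjusted p = 0.104, standard error 0.13). In all 3 genes every KO mouse was above every WT mouse. *Tkt* (0.30) and *Idh1* (0.25) were separated in the same way but stayed under 1.5-fold, and *Taldo1* gave -0.03. Full separation, here and for single genes of the other lists, stands beside 9.71% of all genes tested. The median of the 6 genes tested was 0.46. The calls were lost in several sets with 1 mouse left out, which also have less precision. Without WT mouse 3, *G6pdx* lost its call at a difference of 1.07, close to that with all mice. Of the 8 sets with 1 mouse left out, *G6pdx* was called in 5, *Pgd* in 4, *Me1* in 2 and *Slc39a10* in 0, and without WT mouse 3 none of the 85 genes was called higher. The differences stayed positive, between 0.82 and 1.17 for *G6pdx*, 0.52 and 0.67 for *Pgd*, and 0.72 and 1.03 for *Me1*.

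**Figure D5:**
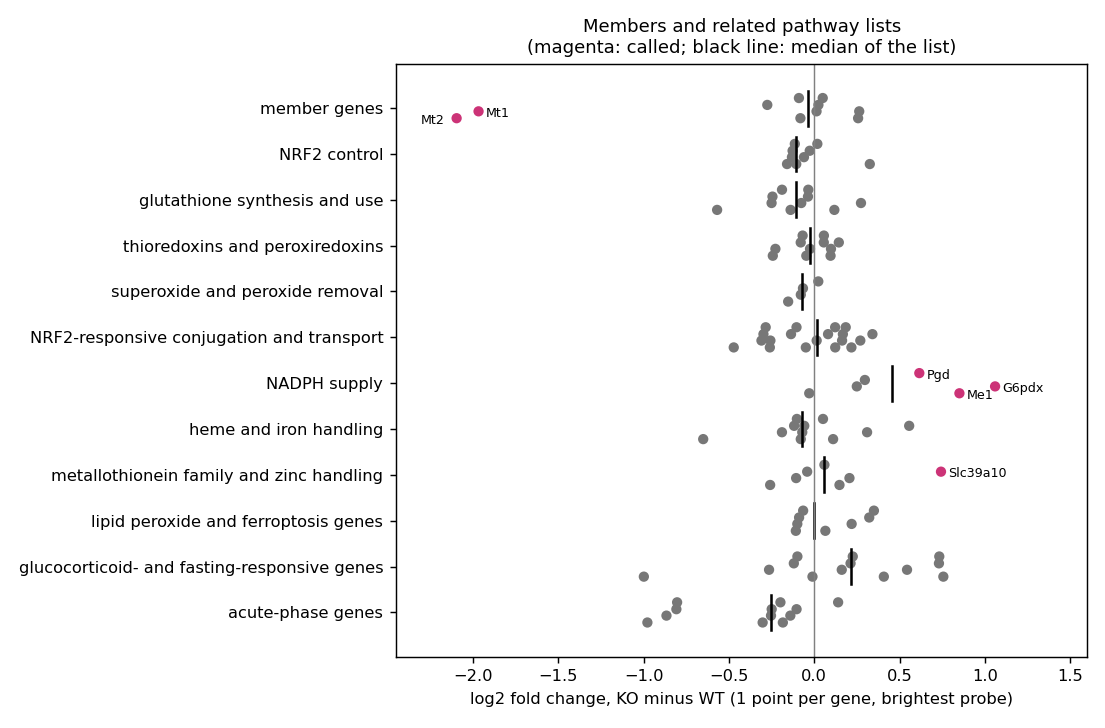
Log2 fold change, KO minus WT, of the members and of each gene tested in 11 related lists (1 point per gene, brightest probe). Magenta marks called genes, black lines the median of each list, and the median of the NADPH supply list (0.46) is the one farthest from 0.

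Among the regulators, 9 of 9 genes were tested and 0 were called in either direction. *Nfe2l2* itself had a log2 fold change of 0.33 (limma adjusted p = 0.319), the highest of this list, and the related factor *Nfe2l1* the lowest, -0.16 (adjusted p = 0.333). WT mouse 3, at 3.45, lay within the KO values of *Nfe2l2*, which were 3.46, 3.52, 3.31 and 3.62. *Keap1* gave -0.06 and *Bach1* -0.13, and the median of the list was -0.11.

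Of the genes of glutathione synthesis and use, 10 of 12 were tested and 0 were called. *Gpx3*, the secreted glutathione peroxidase, had log2 levels of -1.99, -1.28, -1.81 and -1.72 in WT mice and -2.05, -2.43, -2.31 and -2.30 in KO mice. All KO mice were below all WT mice, with a log2 fold change of -0.57 (limma adjusted p = 0.180), just under the 1.5-fold threshold. *Glrx* had the highest value, 0.27, and *Slc7a11*, the cystine importer, and *Ggt1* were above background on none of the arrays. The 11 thioredoxin and peroxiredoxin genes were all tested and 0 were called, with values between -0.24 for *Txnip* and 0.14 for *Txnrd3*. The 4 genes of superoxide and peroxide removal lay between -0.15 for *Sod3* and 0.02 for *Cat*.

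Of 19 NRF2-responsive conjugation and transport genes tested, 0 were called in either direction, with a median of 0.01. The lowest was *Gstp1* (-0.47, limma adjusted p = 0.272), with every KO mouse below every WT mouse, and the highest *Cbr1* (0.34, adjusted p = 0.267), with every KO mouse above every WT mouse. Of 11 heme and iron genes 0 were called, from *Hamp*, the iron hormone hepcidin, at -0.65 (adjusted p = 0.490) to the transferrin receptor *Tfrc* at 0.56 (adjusted p = 0.253). Of 8 lipid peroxide and ferroptosis genes tested 0 were called, from *Aldh2* at -0.11 to *Lpcat3* at 0.35 (adjusted p = 0.295), a lysophospholipid acyltransferase, with a median of 0.00.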

How the data were processed

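Total RNA from 4 *Agpat3* WT and 4 *Agpat3* KO livers was measured with 1 Agilent array per liver. For each array the authors deposited the spot intensity of each array from Agilent Feature Extraction (named in the submitters' processing notes), background-corrected and on a linear scale, and 1 table of log2 values. These deposited log2 values equalled the log2 of the processed signal minus the 75th percentile of the array within 0.01 for 99.95% of values. With 4 arrays a genotype, their number limits the precision.

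Groups follow the genotype in the labels. Control spots and outlier spots were left out, each array was set to its 75th percentile, spots of a probe were averaged, and the 29068 probes that stood well above background on every WT or every KO array were tested, two-sided, with limma (version 3.58.1, lmFit and eBayes, under R 4.3.3) and Benjamini-Hochberg adjustment over these probes. The legend of the volcano plot does not say whether its p was adjusted. Exact permutation tests used all 70 assignments of mice, and correlations used all pairings (scipy 1.17.1). Figures were drawn with matplotlib 3.10.9. The fits were tested on simulated data. Accessions were named through RefSeq tables of GRCm38.p6, while the scanner output names another build, and its coordinates were not used.

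Named genes were *Agpat3*, all members, the called, highest and lowest genes of each list, and the 3 genes most like each member that spanned over 1 log2 unit. *Tkt*, *Idh1*, *Keap1*, *Bach1*, *Mt3*, *Mt4*, *Slc7a11*, *Ggt1* and the cell type markers were named after their values were seen. The members and lists were chosen with earlier results of these data known. Alternatives were normexp (offset 50), the deposited log2 values, median or quantile normalization, a stricter filter and none, outlier spots kept, a trend and robust eBayes, a replicate block, an ordinary two-sample test, a gene's mean over its probes, other thresholds, and each array left out.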

Additional observations from a re-analysis of the deposited data

Results flagged for a closer look

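Values of 4 mice were examined for 1 mouse far from the other 3 in 70 groups, and 5 groups held one, by a criterion that chance meets in about 1 of 20 groups. *Nqo1* was -2.00 in WT mouse 1 and -1.46 to -1.35 in the other WT mice. *G6pdx* was 2.36 in KO mouse 3 and 1.32 to 1.48 in the other KO mice. *Slc39a10* was -3.29 in WT mouse 4 and -2.49 to -2.34 in the other WT mice, and *Lpcat3* was 5.78 in WT mouse 4 and 5.28 to 5.35 in the others. *Sod3* was 2.72 in KO mouse 2 and 2.84 to 2.86 in the other KO mice.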

How the results depend on the processing

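The count of members called lower (2) became 0 with no filter on dim probes, with the ordinary two-sample test and at an adjusted p under 0.05, became 1 (*Mt2*) when a gene's probes were averaged, and was 0 to 2 with 1 mouse left out. *Mt1* and *Mt2* kept a negative change under all alternatives, -2.39 to -1.38 and -2.68 to -1.76, and no member was called higher under any. The 4 genes of the redox lists called higher became 0 with no filter and at an adjusted p under 0.05, 1 with the ordinary test (*Pgd*) and at a fold change over 2 (*G6pdx*), 3 with median normalization (*Pgd* lost) and with normexp or averaged probes (*Slc39a10* lost in both), 6 with no minimum fold change, and 0 to 3 with 1 mouse left out. The 0 called lower became 1, *Gpx3*, with quantile normalization, median normalization or no minimum fold change, and was 0 to 1 with 1 mouse left out. With genotype means removed, chosen after seeing the data, the pairs of correlated members went from 1 to 0, which the test fixed in advance, since its smallest p of 0.00174 becomes 0.0781 for a single pair of 45. Signs turned, near 0 and without a call, with median normalization for *Gpx4* (-0.024) and *Txnrd1* (-0.013), and with 1 mouse left out for *Gclc* (without WT mouse 3 or KO mouse 4, range -0.046 to 0.162), *Gpx4* (without KO mouse 1 or 3, range -0.021 to 0.047) and *Txnrd1* (without KO mouse 1 or 3, range -0.017 to 0.084). The cause of the other shifts was not tested. With the replicate number as a block, which is also the column of the slide, *Mt1* had an adjusted p of 0.0229 and *Mt2* of 0.0880, and the calls of members (2 lower) and lists (4 higher, 0 lower) did not change. Mice of the same number were not taken as pairs: their deviations correlated at 0.331, -0.11, 0.104 and 0.319, and only mice 1 and 4 correlated best with their own number. In *Mt1* (brighter probe) and *Mt2*, though, both genotypes ranked the numbers alike, and each KO mouse lay below the WT mouse of its number.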
